A study of Mus musculus with 1016 samples.

Results

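The Igf2r and Airn imprinted domain was taken as mouse chromosome 17 from 12300 to 13100 kb (GRCm38), which holds Igf2r, its antisense RNA Airn, and the transporter genes Slc22a2 and Slc22a3. The domain covers 16 of the 49264 bins of 50 kb in the tables, and 14 of these 16 bins had a replication state in all 14 tables. The last 2 bins, with Sod2, Gpr31b and Tcp10b, had no state in any table, so the values below cover 12300 to 13000 kb. Single-cell Repli-seq reads the copy number of each bin in a cell in S phase, and each bin is called replicated (1) or not replicated (0). The measure used throughout is the share of cells with a bin replicated, over cells with a replication score (the percentage of a cell's called bins that are replicated) of 10 to 90%. Within a group, a higher share means that more of the cells had replicated the bin, that is, earlier replication. Between groups, the share also depends on how far the cells were through S phase. The mean score ran from 40.8% in 4-cell cells to 61.1% in zygotes from in vitro fertilization.

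The cells with a single parental genome or origin were parthenotes, which are oocytes of C57BL/6J x CBA F1 females activated with strontium without sperm (57 cells used of 57), maternal pronuclei of (C57BL/6J x CBA)F1 genotype (21 of 25) and paternal pronuclei of DBA/2J genotype (17 of 19), the pronuclei taken at 21 to 25 h after injection of human chorionic gonadotropin. The embryos with both parental genomes, (C57BL/6J x CBA) x DBA/2J, were zygotes from in vitro fertilization (IVF zygotes, 57 of 58), naturally fertilised zygotes (66 of 68), 2-cell (63 of 66), 4-cell (55 of 57), 8-cell (56 of 57), 16-cell (40 of 40) and morula cells (47 of 47), and inner cell mass (ICM) cells of the blastocyst (70 of 71). Other embryos of the same cross were treated from the zygote stage until their collection at the 2-cell stage. They received alpha-amanitin, an inhibitor of RNA polymerase II (42 of 42), or DRB, an inhibitor of transcription elongation (67 of 70). Further embryos were injected as zygotes with Kdm5b mRNA, which encodes a demethylase of histone H3 lysine 4, and collected at the 2-cell stage (56 of 56). Pronuclei were told apart by size and by their position relative to the second polar body. By the study's methods, their origin was also checked by parental variants and pronuclei that went against it were exchanged, and whether the labels used here carry that exchange is not given in the sources used here. The study also found several parthenogenetic cells among its IVF zygotes and left them out. The labels do not say whether the IVF zygotes used here still include such cells. The maternal and paternal genomes also differ in strain, so parental origin and strain cannot be told apart. In the embryos both alleles lie in the same cell and a bin has a single state, so a difference between the alleles within a cell is not resolved. The labels name no embryo or litter for a cell. Each group was therefore treated as 1 pooled sample without replicates, no test was run, and the 95% exact binomial intervals given below cover counting error only.

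Igf2r encodes the receptor that takes up IGF2 for degradation and carries enzymes tagged with mannose 6-phosphate to lysosomes. In mouse tissues after implantation it is expressed from the maternal allele. Airn is a long non-coding RNA transcribed from the paternal allele, and it silences Igf2r on that allele and, in the placenta, Slc22a2 and Slc22a3 as well, both of which encode organic cation transporters. Imprinted domains are known in somatic cells for replicating at different times on the maternal and paternal alleles, which is the question that the separated pronuclei address here.

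Igf2r lies on the minus strand (12682406 to 12769664, 87259 bases) and Airn on the plus strand (12741311 to 12860136, 118826 bases). The Airn start falls in intron 2 of the 48-exon Igf2r transcript, and the genes overlap by 28354 bases. At 50 kb, Igf2r covers 3 bins and Airn 4, and some of these bins are shared, so their values are not independent of each other. Slc22a2 (12584132 to 12628488, plus strand) covers 2 bins and Slc22a3 (12418960 to 12507704, minus strand) 3 bins. The promoters of Igf2r and Airn are shown because they drive the opposed maternal and paternal transcripts, and CpG dinucleotides, the sites of DNA methylation, are in capitals. Both are RefSeq sequences of GRCm38.p6 from 250 bases before to 50 after the start, at chr17:12769657-12769956 (minus strand) for Igf2r and chr17:12741061-12741360 (plus strand) for Airn.
Igf2r promoter: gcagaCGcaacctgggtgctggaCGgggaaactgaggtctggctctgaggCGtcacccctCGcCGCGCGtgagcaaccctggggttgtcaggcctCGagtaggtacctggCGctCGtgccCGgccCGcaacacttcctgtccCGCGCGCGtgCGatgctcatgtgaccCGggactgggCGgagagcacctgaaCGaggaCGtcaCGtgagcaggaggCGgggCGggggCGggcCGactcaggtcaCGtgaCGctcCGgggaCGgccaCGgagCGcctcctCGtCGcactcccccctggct
Airn promoter: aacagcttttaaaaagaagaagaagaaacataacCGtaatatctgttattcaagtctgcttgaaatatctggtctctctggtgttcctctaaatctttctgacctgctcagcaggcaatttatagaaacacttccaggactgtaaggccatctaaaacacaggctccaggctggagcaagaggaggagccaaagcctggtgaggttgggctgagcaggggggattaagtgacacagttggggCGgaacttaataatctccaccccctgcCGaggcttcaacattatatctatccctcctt
The Igf2r promoter held 34 CpGs, and 7.73% of the 32851 promoters of the same length held as many or more. The 300 bases taken at the Airn start held 3, a count reached by 76.7% of promoters. CpGs farther from the start were not counted, so this count does not describe the wider region around the Airn start. The promoters of Slc22a2 and Slc22a3 held 8 and 5 CpGs, and the median over all promoters was 7. The start sites of Igf2r and Airn lie in neighbouring bins, so a state of either promoter cannot be read apart from its 50 kb surroundings.

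Within a cell the domain mostly behaved as a unit. Of the 711 cells with a call there (3 cells had none), 519 (73%) had the same state in all 14 bins and 192 (27%) had both states. The states were smoothed and segmented by the authors over stretches of about the length of the domain, which also makes neighbouring bins alike, and the part of this step was not tested. The same count was not made for other stretches of the genome, so it is not shown to be particular to this domain. Mixed states were found in 7 of 21 maternal and 3 of 17 paternal pronuclei, in 14 of 56 parthenotes and 21 of 57 IVF zygotes, and most often at the 4-cell stage, in 22 of 55 cells.

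In the pronuclei, the domain was replicated in a somewhat smaller share of maternal than of paternal genomes within the score limits, no bin differed by 0.2 or more, and the direction turned when the limits were lifted. The mean share over the 14 bins was 0.503 in maternal pronuclei and 0.584 in paternal pronuclei, a difference of -0.081. It was 0.0077 with no limit on the score and -0.175 at scores of 20 to 80%, so the difference has no settled direction. Most of the called bins, that is a share over 0.5, were replicated in 9 of 21 maternal pronuclei (share 0.429, interval 0.218 to 0.660). The same held in 10 of 17 paternal pronuclei (0.588, 0.329 to 0.816). Maternal pronuclei 21 and 40 stood at exactly 0.5 and were not counted, and no paternal pronucleus stood there. Much of the gap between these counts therefore rests on how ties are taken. The intervals overlap widely. Within the score limits of 10 to 90% the difference was below 0 in all 14 bins, from -0.160 to -0.017, but the bins are not separate measurements because most cells carried the same state across them.

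All bins of the genome give the scale for this difference. Over 46381 bins the median difference between maternal and paternal pronuclei was 0.017, 10.3% of bins were higher by 0.2 or more in maternal pronuclei and 6.47% were lower by 0.2 or more. The domain had 0 of 14 bins past 0.2 in either direction and 5 of 14 past 0.1, against 49.3% of all bins past 0.1, and 25.4% of all bins lay below its mean difference. Relative to the median of all bins, the domain differed by -0.097. The interval RT, which averages the share over 16 overlapping intervals of the replication score, was 0.458 in maternal and 0.503 in paternal pronuclei, a difference of -0.045, and single bins ranged from -0.176 to 0.100, so its direction was not the same along the domain.

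**Figure D1:**
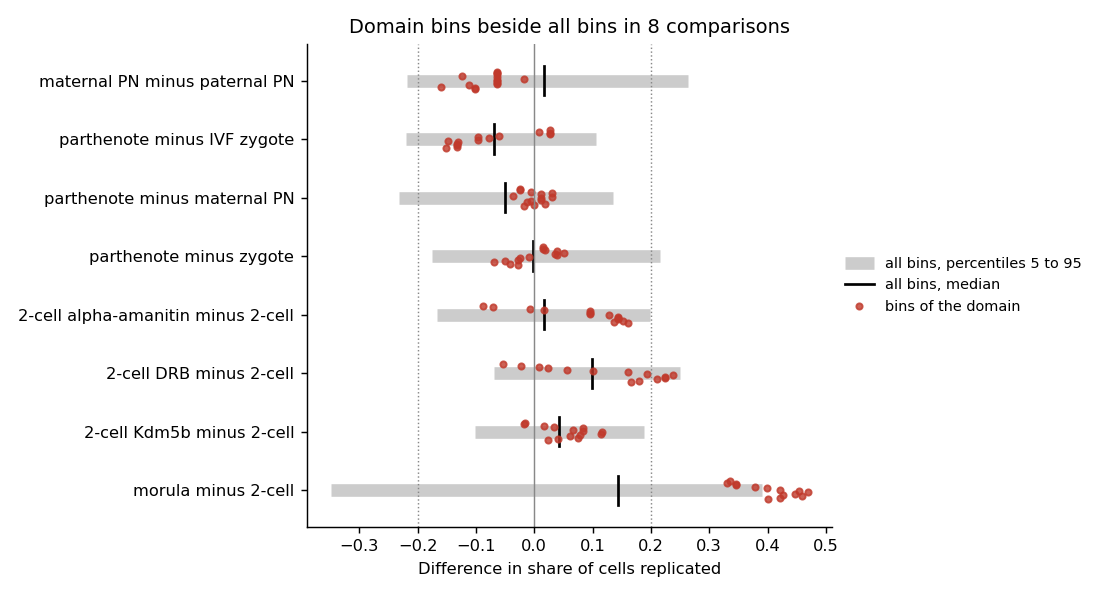
Difference in the share of cells replicated (x axis) for the 14 bins of the domain (red points) in 8 comparisons, beside all bins (grey bar, percentiles 5 to 95; black line, median; dotted lines at -0.2 and 0.2). The domain bins lie within the grey bar in the pronuclei, where none passes 0.2, and past 0.2 in all 14 bins only for morula minus 2-cell.

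Igf2r itself was replicated in 12 of 21 maternal pronuclei (0.571 by cells, 0.340 to 0.782) and 10 of 17 paternal pronuclei (0.588, 0.329 to 0.816). Its mean share over bins was 0.540 in maternal and 0.588 in paternal pronuclei, a difference of -0.049, the smallest among the 4 genes. For Airn the shares were 0.536 in maternal and 0.603 in paternal pronuclei (difference -0.067), and for Slc22a2 0.524 in maternal and 0.588 in paternal pronuclei (-0.064). Slc22a3, farthest from Airn, had the largest difference, with 0.476 in maternal and 0.588 in paternal pronuclei (-0.112). The 4 differences stand in the order Slc22a3, Airn, Slc22a2 and Igf2r, and each corresponds to about 1 or 2 cells, so neighbours in this order do not differ beyond counting error. By the interval RT the difference was 0.023 at Igf2r and 0.0049 at Airn, of the opposite sign, and -0.018 at Slc22a2 and -0.107 at Slc22a3.

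The position of each pronucleus in S phase was also compared. The replication score ranged from 25.4 to 88% in maternal pronuclei (median 54.9) and from 15.7 to 85.3% in paternal pronuclei (median 63.1). The mean score had the opposite order, with 59.99% in maternal and 58.28% in paternal pronuclei. Median and mean therefore do not settle which pronuclei were further through S phase. Among pronuclei with a score under 50%, the domain was mostly replicated in 1 of 5 maternal and 3 of 5 paternal pronuclei. At a score of 50% or more it was mostly replicated in 8 of 16 maternal pronuclei (0.50, 0.247 to 0.753) and 7 of 12 paternal pronuclei (0.583, 0.277 to 0.848). The maternal pronuclei with exactly 0.5 of the bins replicated fall in this range of scores and were not counted. Maternal pronuclei without a mostly replicated domain reached a score of 76.3%, and paternal ones 72.4%, so in both some genomes were well into S phase before the domain was replicated.

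**Figure D2:**
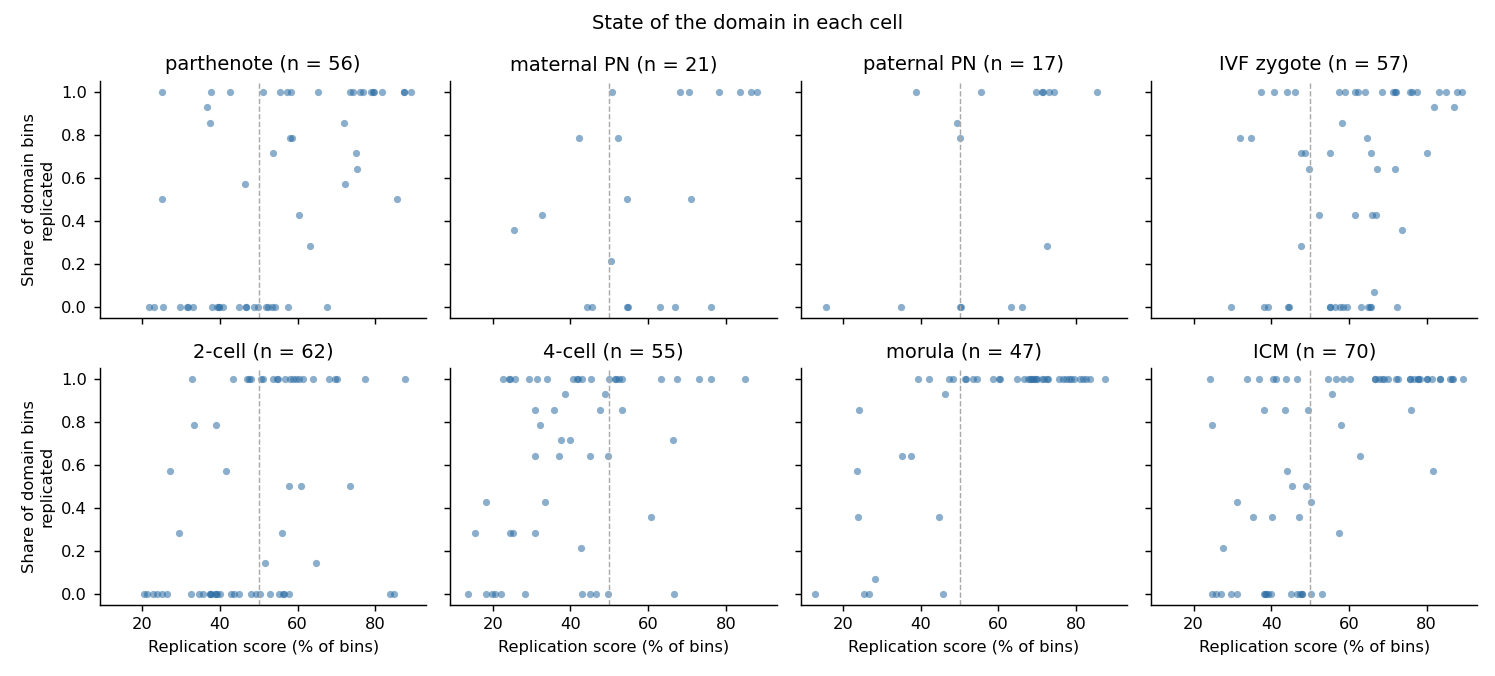
Share of the 14 domain bins replicated in each cell (y axis) against the replication score of the cell in % of bins (x axis) in 8 groups; each point is a cell and the dashed line marks a score of 50%. In pronuclei, parthenotes and 2-cell embryos cells at 0 extend far beyond 50%, whereas all 31 morula cells at 50% or more lie at 1.

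Parthenotes, which carry only maternal genomes, had a mean share close to that of maternal pronuclei within the score limits. It was 0.503 in parthenotes and 0.503 in maternal pronuclei, with differences over the bins from -0.036 to 0.030. The difference was -0.080 with no limit on the score, 0.047 with only cells that the study listed as passing quality control, and 0.049 relative to the median of all bins, so the closeness rests on the cells kept. None of the 14 bins passed 0.2 in either direction, against 1.51% of all bins higher and 8.86% lower in parthenotes, and a median over all bins of -0.050. Set against naturally fertilised zygotes, the share was 0.503 in parthenotes and 0.505 in zygotes, with bins between -0.069 and 0.051. The difference was -0.076 with only passing cells and ran from -0.045 to 0.057 when a collection hour was left out. In that comparison 6.46% of all bins were higher and 2.93% lower by 0.2 or more, and again none of the domain.

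Set against IVF zygotes, which were timed from insemination as parthenotes were from activation, parthenotes had lower shares on the Slc22a3 side of the domain and similar ones toward the other end, past the Airn start. The domain averaged 0.503 in parthenotes and 0.579 in IVF zygotes, a difference of -0.076, while the median over all bins was -0.070. Most of the called bins were replicated in 29 of 56 parthenotes (0.518, 0.380 to 0.653) and 34 of 57 IVF zygotes (0.596, 0.458 to 0.724). The bins ranged from -0.151 to 0.027, 10 below 0 and 4 above, none passed 0.2 and 6 passed 0.1 (41.9% of all bins passed 0.1), against 0.579% of all bins higher and 7.38% lower. By gene, the difference was -0.132 for Slc22a3, -0.122 for Slc22a2, -0.078 for Igf2r and -0.026 for Airn. For Igf2r the shares were 0.542 in parthenotes and 0.620 in IVF zygotes, and for Airn 0.536 in parthenotes and 0.561 in IVF zygotes.

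The state of the domain was also read by the progress of S phase in each group. In parthenotes it was mostly replicated in 6 of 24 cells with a score under 50% and 23 of 32 cells at 50% or more (0.25, 0.098 to 0.467, and 0.719, 0.533 to 0.863). In IVF zygotes the counts were 9 of 15 cells under 50% and 25 of 42 at 50% or more (0.600, 0.323 to 0.837, and 0.595, 0.433 to 0.744). In natural zygotes they were 8 of 26 cells under 50% and 25 of 40 at 50% or more (0.308, 0.143 to 0.518, and 0.625, 0.458 to 0.773). At scores under 50% and at 50% or more alike, the intervals of parthenotes, IVF zygotes and natural zygotes overlap. Over the collection hours the share in IVF zygotes was 0.333 at the last hour of collection (15 cells, mean score 60.1%) and 0.799 at 6.5 h (11 cells, mean score 57.1%).

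**Figure D3:**
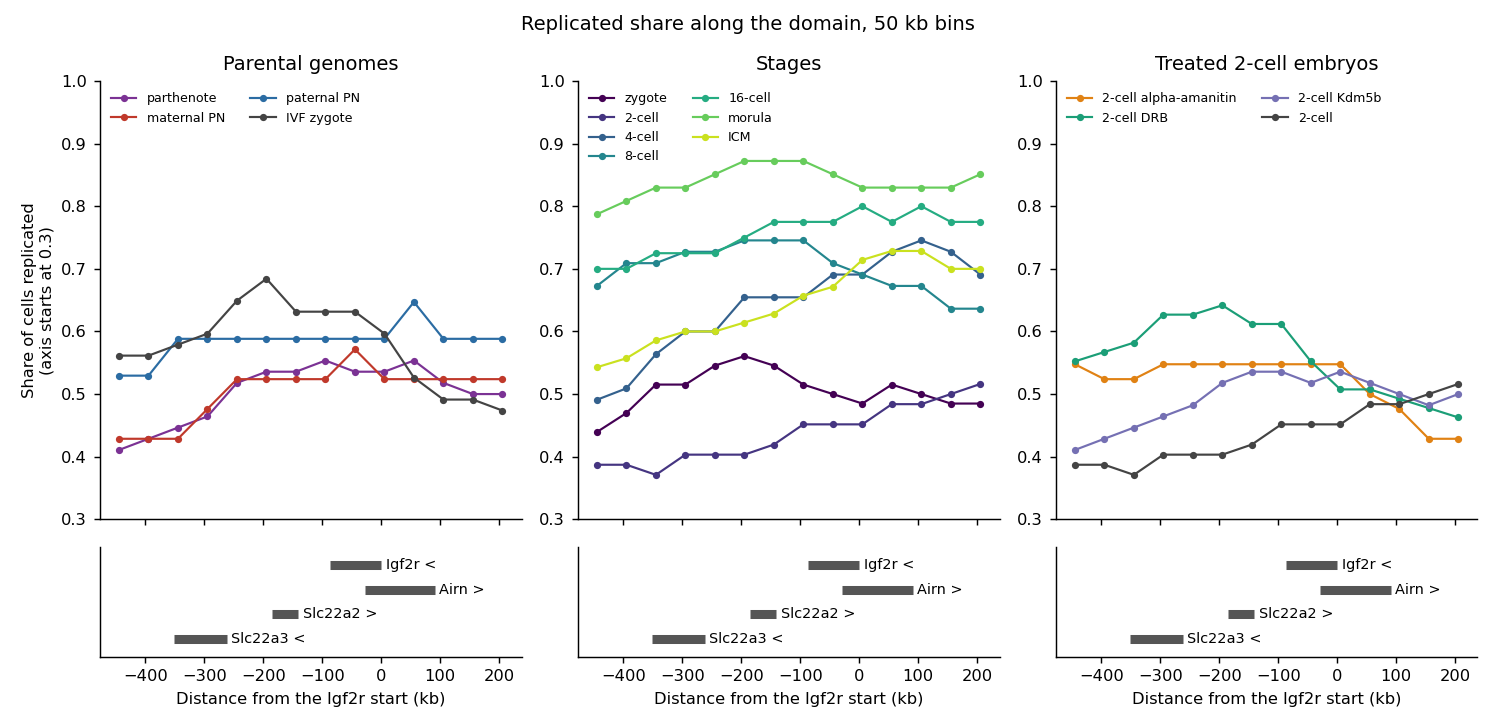
Share of cells replicated (y axis, from 0.3) in the 14 bins along the domain against the distance of the bin centre from the Igf2r start in kb (x axis), with the 4 genes and their strand below; 1 line per group. The lines of parthenotes and maternal pronuclei run together, that of IVF zygotes crosses them within Airn, and the 2-cell line is the lowest of the stages before Igf2r.

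Across the stages the domain lay below the genome's median share up to the 2-cell stage and above it from the 4-cell stage. The mean share was 0.505 in zygotes, 0.437 in 2-cell, 0.643 in 4-cell, 0.70 in 8-cell, 0.755 in 16-cell and 0.839 in morula cells, and 0.645 in the ICM. With only cells listed as passing quality control, it was 0.781 in the ICM (31 cells) and 0.865 in the morula (38 cells). The median over all bins was 0.576 in zygotes, 0.508 in 2-cell, 0.364 in 4-cell, 0.518 in 8-cell, 0.615 in 16-cell, 0.660 in morula and 0.586 in ICM cells. Relative to it the domain therefore stood at -0.070 in zygotes, -0.071 in 2-cell, 0.279 in 4-cell, 0.182 in 8-cell, 0.140 in 16-cell, 0.179 in morula and 0.059 in ICM cells. The share of all bins below the domain was 84.4% in 4-cell and 32.6% in 2-cell cells. The interval RT lay on the same side of its own median at every stage, with 0.228 in 4-cell and -0.063 in 2-cell cells.

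Igf2r was replicated in 33 of 66 zygotes (0.50, 0.374 to 0.626) and 28 of 62 2-cell cells (0.452, 0.325 to 0.583). It was replicated in 38 of 55 4-cell (0.691, 0.552 to 0.809), 39 of 55 8-cell (0.709, 0.571 to 0.824), 31 of 40 16-cell (0.775, 0.615 to 0.892) and 40 of 47 morula cells (0.851, 0.717 to 0.938), and in 47 of 70 ICM cells (0.671, 0.549 to 0.779). In the order of these levels the 2-cell stage is lowest and the morula highest, and the intervals of neighbouring stages overlap. Those of 2-cell and morula cells do not. Airn was at 0.50 in zygotes, 0.468 in 2-cell, 0.714 in 4-cell, 0.686 in 8-cell, 0.788 in 16-cell, 0.835 in morula and 0.711 in ICM cells. Slc22a2 was highest in morula cells, at 0.872, and lowest in 2-cell cells, at 0.411, and Slc22a3 likewise, with 0.837 in morula and 0.392 in 2-cell cells.

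**Figure D4:**
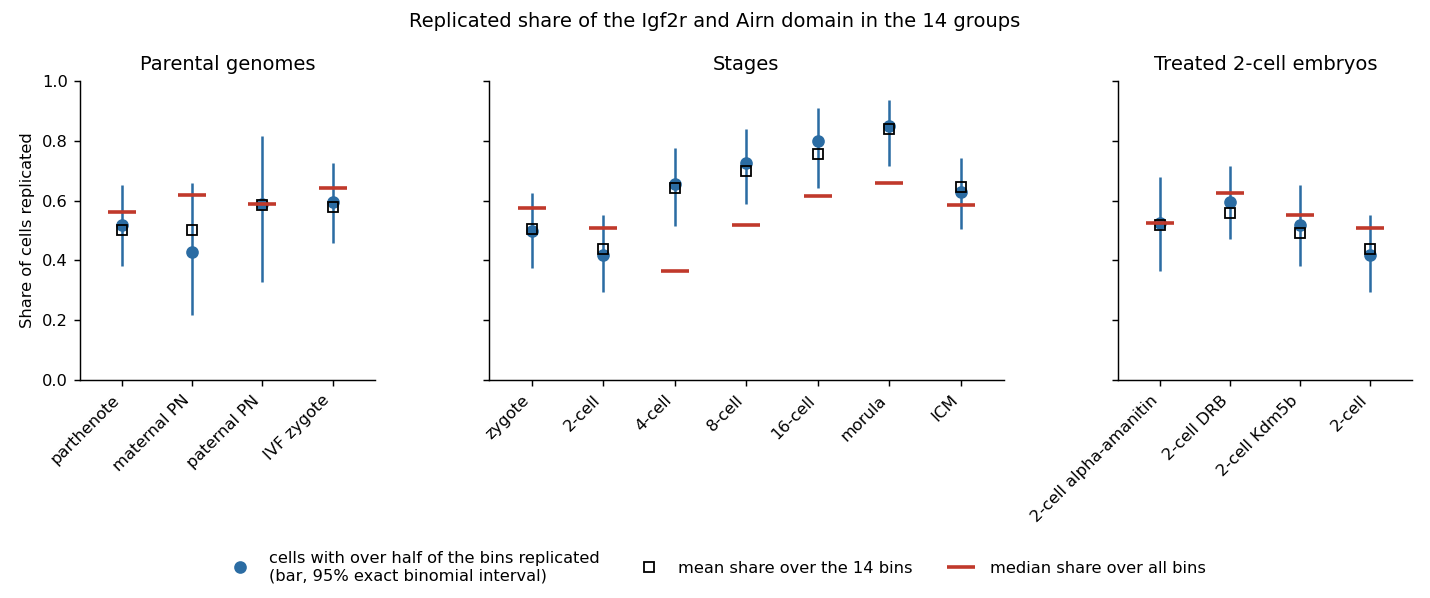
Share of cells replicated (y axis) in each of the 14 groups: cells with most of the domain's called bins replicated (blue point, with the 95% exact binomial interval), the mean share over its 14 bins (open square) and the median share over all bins (red dash). The open squares lie below the red dash up to the 2-cell stage and above it from the 4-cell stage to the ICM.

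Morula and 2-cell cells differed in every bin of the domain. The mean share was 0.839 in morula and 0.437 in 2-cell cells, a difference of 0.402, with bins from 0.330 to 0.469. All 14 bins were higher by 0.2 or more, against 38.9% of all bins (15.9% were lower), and 96% of all bins lay below the mean difference of the domain. The difference was largest at Slc22a2 (0.461) and Slc22a3 (0.444), and it was 0.399 at Igf2r and 0.367 at Airn. The domain moved beyond the median of all bins (0.144) by 0.258. It was mostly replicated in 9 of 16 morula cells with a score under 50% and in 31 of 31 at 50% or more (1.00, 0.888 to 1.00), against 9 of 31 and 17 of 31 2-cell cells (0.548, 0.360 to 0.727, at 50% or more). The highest score of a cell without a mostly replicated domain was 45.8% in the morula and 84.8% at the 2-cell stage.

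The 16-cell and ICM values rest on cells collected at different times. Of the 16-cell cells, the 31 of 80 h had a mean domain share of 0.926 and a mean score of 61.6%, and the 9 of 77 h had a mean domain share of 0.167 and a mean score of 33.4%, with a Spearman correlation of 0.177 between the profiles of these hours over all bins. ICM cells of the later collection had 0.539 (37 cells, mean score 50.2%) and those of 96 to 100 h 0.764 (33 cells, 60.6%). The 8-cell cells of 72 h stood apart from the other 8-cell cells over all bins (Spearman correlation 0.059), and had a domain share of 0.545 (11 cells). Without them the 8-cell share was 0.739. The part of score and of hour in these values was not tested.

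The slope across the domain differed between stages. Split into the 7 bins before and the 7 bins after 12650 kb, a split chosen after the values were seen, the Airn side had the higher share in 4-cell cells (0.704 against 0.582 on the Slc22a3 side), in the ICM (0.70 against 0.590) and in 2-cell cells (0.477 against 0.396). The 2 sides were nearly level in the morula (0.842 and 0.836) and in zygotes (0.498 and 0.513). Cells in which only the last bin on the Airn side was replicated, and not the first bin on the Slc22a3 side, outnumbered the opposite kind by 16 to 5 in 4-cell, 15 to 4 in ICM and 9 to 1 in 2-cell cells. In IVF zygotes the count was 7 to 12. Counts of this kind, here and in the treated embryos below, were not made for other stretches of the genome.

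The 3 groups of treated 2-cell embryos were set against the same control 2-cell embryos, whose own share was higher on the Airn side (0.477) than on the Slc22a3 side (0.396). With DRB, the domain averaged 0.559 in treated and 0.437 in control embryos, a difference of 0.122 beside a median over all bins of 0.099. Over the collection hours common to both groups it was 0.069, and it ran from 0.067 (without the DRB cells of 37 h) to 0.165 when an hour was left out. 4 of 14 bins, over Slc22a3 and towards Slc22a2, were higher by 0.2 or more, against 14.3% of all bins, and none was lower, against 0.159%. The differences were 0.219 at Slc22a3, 0.216 at Slc22a2, 0.106 at Igf2r and 0.047 at Airn. By the interval RT the domain differed by 0.059 and no bin passed 0.2.

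With alpha-amanitin the domain averaged 0.519 in treated and 0.437 in control embryos, a difference of 0.082, beside a median of 0.016 over all bins. It ran from 0.044 (without the treated cells of 36 h) to 0.128 (without those of 38 h) when an hour was left out. The bins ran from -0.088 to 0.161, none past 0.2, against 4.53% of all bins higher and 2.48% lower. Slc22a3 differed by 0.147, Slc22a2 by 0.136, Igf2r by 0.096 and Airn by 0.050. Cells with only the last bin on the Airn side replicated numbered 0 with alpha-amanitin and 9 in control embryos. Cells with only the first bin on the Slc22a3 side numbered 5 with alpha-amanitin and 1 in control embryos. The same counts were 6 and 12 with DRB and 11 and 6 after Kdm5b mRNA. Mixed states were found in 6 of 42 alpha-amanitin cells, so these counts are small. After Kdm5b mRNA the domain averaged 0.491 in injected and 0.437 in control embryos, a difference of 0.054 beside a median of 0.042. Over common collection hours it was 0.0031, and it ran from 0.025 (without the control cells of 39 h) to 0.151 (without the injected cells of 38 h) when an hour was left out. No bin passed 0.2, against 3.86% of all bins higher and 0.308% lower, and the interval RT differed by -0.0056. Slc22a2 differed by 0.115, Igf2r by 0.078, Slc22a3 by 0.072 and Airn by 0.050. Igf2r was replicated in 23 of 42 alpha-amanitin cells (0.387 to 0.702), 37 of 67 DRB cells (0.426 to 0.674) and 29 of 56 Kdm5b cells (0.380 to 0.653), with intervals that all overlap that of 28 of 62 control cells (0.325 to 0.583).

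The other genes of the domain followed the bins they lie in. Of 17 protein-coding genes that overlap it, 3 had no state. Toward the left edge, Map3k4, a kinase of the stress-activated MAP kinase pathway, had 0.497 in 4-cell and 0.398 in 2-cell cells, and Plg, which encodes plasminogen, had 0.536 in 4-cell and 0.379 in 2-cell cells. Toward the right edge, Tcp1, a subunit of the cytosolic chaperonin, Mrpl18, of the mitochondrial ribosome, and Acat3 share a bin and had 0.727 in 4-cell and 0.50 in 2-cell cells. Wtap, a subunit of the RNA m6A methyltransferase complex, had 0.851 in morula and 0.516 in 2-cell cells. In the pronuclei Tcp1 had 0.524 in maternal and 0.588 in paternal pronuclei.

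At every stage from the 4-cell stage to the ICM the domain lay above both of its flanks. In 4-cell cells its share was 0.643, against 0.349 in the 2 Mb before it (40 bins) and 0.467 in the 2 Mb after it (29 bins with a state). In morula cells it was 0.839, against 0.658 before it and 0.70 after it. In the ICM the values lay closer, with 0.645 in the domain, 0.612 before it and 0.583 after it. In the pronuclei the flank after it had a wider gap than the domain, with 0.593 in maternal and 0.767 in paternal pronuclei (difference -0.174). There, 10 of 29 bins were lower by 0.2 or more, against 6.47% of all bins. The flank before it had 0.640 in maternal and 0.675 in paternal pronuclei (-0.035), with no bin past 0.2.

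Other imprinted domains were measured the same way in the pronuclei. The domain of Dlk1 to Dio3 (chromosome 12, 17 bins) had 0.381 in maternal and 0.662 in paternal pronuclei, a difference of -0.281 with 13 bins lower by 0.2 or more. All 17 bins had the same maternal share, so they are not separate measurements. The Peg3 domain (7 bins) had 0.401 in maternal and 0.545 in paternal pronuclei, with 1 bin lower by 0.2 or more. The domain of Igf2, H19 and Kcnq1 had 0.419 in maternal and 0.466 in paternal pronuclei and that of Snrpn and Ube3a 0.394 in maternal and 0.319 in paternal pronuclei, and no bin of either passed 0.2. The Igf2r and Airn domain, at -0.081, lay between these. Over all bins, 6.47% were lower and 10.3% higher by 0.2 or more in maternal pronuclei. Other score limits were not applied to the other imprinted domains.

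**Figure D5:**
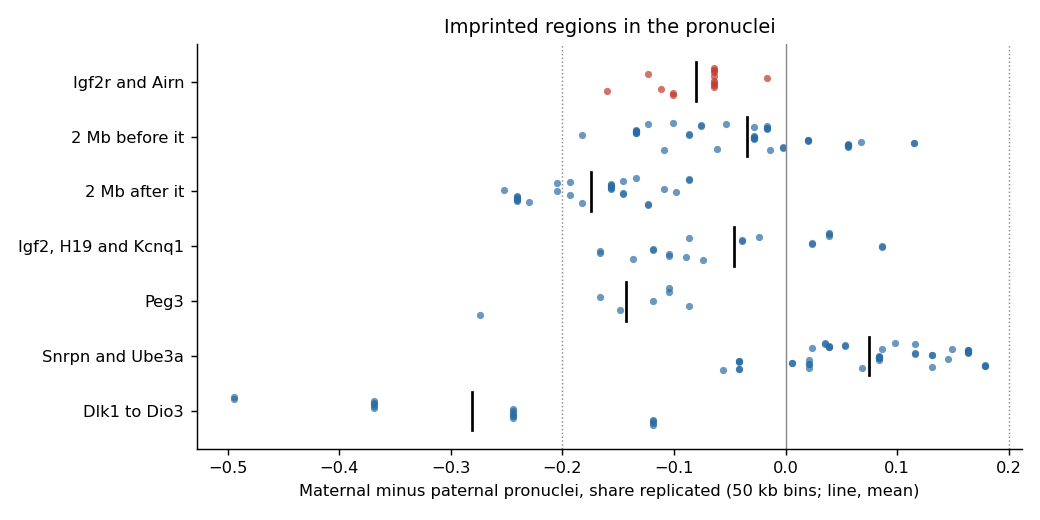
Difference between maternal and paternal pronuclei in the share replicated (x axis) for each 50 kb bin (points) of the Igf2r and Airn domain (red), its 2 Mb flanks and 4 other imprinted domains (blue), with the mean as a black line and dotted lines at -0.2 and 0.2. All 14 bins of the domain lie between -0.160 and -0.017, and 13 bins of the Dlk1 to Dio3 domain lie at or below -0.2, as do 6.47% of all bins.

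Genes tied to the members by function were counted from lists. In maternal minus paternal pronuclei, 6.29% of 19927 protein-coding genes were higher by 0.2 or more and 8.26% lower, with a median of -0.0093. Of 18 genes of the IGF and mannose 6-phosphate axis, 3 were higher (Igfbp2, 0.296, and Igfbp5, 0.266, which bind IGFs and lie beside each other, and Irs2, 0.268, an adaptor of insulin and IGF receptors) and 2 lower, with a median of -0.028. M6pr, the other mannose 6-phosphate receptor, was lower, with 0.381 in maternal and 0.765 in paternal pronuclei (-0.384), and Igfals, which holds IGFs in the circulation, likewise (-0.207). Igf2, the ligand that Igf2r clears, differed by -0.089 and Igf1r, the signalling receptor, by -0.114. Of 14 other Slc22 transporter genes 1 was higher (Slc22a19, 0.260) and 0 lower, with a median of 0.037.

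Of 17 maternally expressed imprinted genes elsewhere, 0 were higher and 2 lower (Zim1, -0.274, and Mirg, -0.244), with a median of -0.014. Of 26 paternally expressed ones, 1 was higher (Peg10, 0.223) and 1 lower (Dio3, -0.494), with a median of -0.0069. Between morula and 2-cell cells, 66.6% of 19868 protein-coding genes were higher by 0.2 or more and 2.22% lower, with a median of 0.253. All 4 genes of the domain were higher by more than this median. In the same comparison 8 of 18 genes of the IGF axis were higher and none lower (median 0.188), 12 of 14 Slc22 genes were higher and none lower (0.245), 14 of 17 maternally expressed imprinted genes were higher and none lower (0.322), and 17 of 26 paternally expressed ones were higher and 1 lower (0.245).

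Over all 14 groups, the genes elsewhere whose shares came nearest to those of the domain were Abcg1, a cholesterol exporter, Mycl, a MYC family transcription factor, and Tff3, a trefoil factor. Their root mean square differences were 0.0419, 0.0423 and 0.0424 over the 14 groups, against a median of 0.152 over 19743 protein-coding genes more than 5 Mb away. Abcg1 and Tff3 lie close to each other on chromosome 17 (31057675 to 31117988 and 31125306 to 31129646), and Mycl lies on chromosome 4. Abcg1 had 0.548 in maternal and 0.618 in paternal pronuclei, and 0.851 in morula and 0.468 in 2-cell cells.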

How the data were processed

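The authors deposited for each cell a binary state per 50 kb bin on chromosomes 1 to 19 of mm10 (GRCm38), a different measure from read counts. Per the labels and the study's methods, reads were aligned with Bowtie2 2.3.5, filtered with SAMtools 1.9 and counted with bedtools 2.29.0. Counts were divided by the stage mean of each bin, which removes any copy number common to the stage, then masked, smoothed by a running median, segmented and split into replicated and not replicated. Of 1016 labelled samples, 733 have states here and 714 passed the score limits. Read depth per cell is not in the tables, and intervals reflect cell numbers only. No cells of a group had identical states.

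Shares, exact Clopper-Pearson intervals and differences were computed in Python 3.11.15 with NumPy, pandas and SciPy, and genes placed by GENCODE M21. A gene takes the mean of the bins it overlaps. A difference of 0.2 or more, in either direction, is counted and read against all bins. The functions were tested on simulated data. The named genes are the members, the other protein-coding genes of the domain, listed genes past 0.2 and up to 3 well-known others per list, and the 3 nearest in pattern. Members and lists were chosen with earlier results of these data known. Alternatives were interval RT, score limits, the study's list of passing cells, other bins and thresholds, hours left out, and hours held in common. The difference was also taken over pronuclei paired by number.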

Additional observations from a re-analysis of the deposited data

How the results depend on the processing

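Of 153 values recomputed under other settings, 149 moved by less than the margin of the 95% binomial interval. This margin is wide at these cell numbers, and a change of sign, as in the pronuclei from -0.081 to 0.0077, falls within it. The count of 149 therefore does not show that the differences are stable. For morula minus 2-cell, subtracting the median difference over all bins gave 0.258. With a threshold of 0.1, 5 bins passed in maternal minus paternal pronuclei, against 49.3% of all bins, and 6 in parthenotes minus IVF zygotes, against 41.9%. With only the ICM cells that the study listed as passing quality control, the ICM share was 0.781. Leaving out a collection hour gave 0.167 to 0.926 for 16-cell cells, 0.539 to 0.764 for the ICM, 0.373 to 0.439 for morula minus 2-cell and -0.164 to -0.024 for parthenotes minus IVF zygotes. Over collection hours common to both groups, parthenotes minus IVF zygotes was -0.117, DRB minus control 0.069, alpha-amanitin minus control 0.070 and Kdm5b minus control 0.0031. The difference between maternal and paternal pronuclei was 0.0077 with no limit on the score and -0.175 at scores of 20 to 80%. Kdm5b minus control was -0.0056 by interval RT. The causes were not tested.

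By the study's methods, both pronuclei of a zygote were collected and processed. The labels do not say that pronuclei of the same number came from the same zygote. Over 10 such pairs the paired difference (replicate block) was -0.157, with the paternal share higher in 5, the maternal in 2 and equal in 3. Deviations from the group profiles correlated between -0.034 and 0.084 within pairs. These values cannot show whether the numbers mark pairs, because maternal and paternal pronuclei hold different genomes. The results above took the pronuclei as separate groups, with a difference of -0.081. The number of cells limits the pronuclei most, with 21 maternal and 17 paternal.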
